A study of Arabidopsis thaliana with 16 samples.

Results

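The comparison described here is that of Arabidopsis thaliana leaves after 48 h in air from Lima bean plants damaged by leafminer larvae with leaves after 48 h in air from healthy Lima bean plants. It rested on 6 of the 16 arrays of the series, 3 for each treatment, chosen by the treatment and time given in their labels. The other 10 arrays held the same volatile comparison at 24 h (4 arrays) and a comparison of leafminer-fed with healthy A. thaliana (6 arrays). The labels give leaves of 4-week-old Col-0 wild type as the source of all 16 arrays, although the titles call the plants seedlings, and each sample was a pool of tissue from at least 8 plants. The controls were therefore not plants in clean air, since they received the volatiles of undamaged Lima beans for the same time. The question asked of the comparison was which genes of an unattacked receiver plant respond to the volatiles that feeding larvae induce in a neighbour.

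Herbivore-damaged plants release green leaf volatiles and terpenes, and a neighbour that receives them can change its own gene expression before any insect arrives. In A. thaliana leaves, damage responses run mainly through jasmonate, made from fatty acids by lipoxygenase, allene oxide synthase and the 12-oxophytodienoate reductases, and through ethylene, and they end in defence proteins such as chitinases, thionins and defensins. Leaves also carry enzymes that conjugate foreign or reactive compounds, chiefly the glutathione transferases and the UDP-glycosyltransferases, and the same kind of glycosyltransferase completes the anthocyanin pigments.

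The unit of measurement was the signal of an Affymetrix probe set, a group of oligonucleotides on the ATH1 array that matches a transcript. Levels are given below as log2 of that signal with values below 1 set to 1, so that a level of 0 means a signal at that floor. A probe set was called when limma gave an adjusted p of at most 0.05 over all 22746 probe sets tested and the change was at least 2-fold. Each array was a separate pooled sample, and the study calls its replicates independent. Neither the study nor the labels say that the 3 pools of a treatment came from separate exposures. The p-values therefore measure the spread between the samples, which may be technical. That spread was estimated from all 16 arrays, as 1 value per probe set over the 6 groups of the series.

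At 48 h, 127 probe sets were called up (0.558% of those tested) and 47 were called down (0.207%), 174 in all (0.765%). These counts rest on the spread pooled over the series: with the 6 arrays of 48 h alone, limma called 6 up and 1 down, and with the 10 arrays of the volatile experiment 30 and 13. The up calls had a median log2 change of 1.78 and reached 5.96, with 50 of them at least 4-fold and 15 at least 8-fold. The down calls had a median log2 change of -1.68, with 10 of 47 at least 4-fold and 1 at least 8-fold. No call rested on overlapping groups: in all 127 and all 47, the 3 arrays of one treatment lay wholly on one side of the 3 of the other. This is not separate evidence, since the calls were selected on the same difference between the groups. Of the up calls 55 matched a single gene in the annotation and of the down calls 25. Genes that were not called are named below only as members of a list or panel, with their adjusted p.

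The overall brightness of the 6 arrays was not equal, and it bore on the balance of the calls. The median signal was 22.5, 21.8 and 24.7 on control arrays 1, 2 and 3 and 24.6, 30.3 and 20.1 on volatile arrays 1, 2 and 3, so the brightest and the dimmest array were both volatile arrays. The spike-in control transcripts, added in fixed amounts, had geometric mean signals of 263, 243 and 270 on the controls and 259, 243 and 183 on the volatile arrays, lowest on volatile array 3. The 3' to 5' signal ratio of actin, a measure of RNA integrity, was 3.01, 2.70 and 2.46 on the controls and 2.17, 2.14 and 2.08 on the volatile arrays, with no overlap. The same ratio overlapped for the other transcripts with such probe sets. For GAPDH it was 0.94, 0.97 and 1.02 on the controls and 1.06, 0.87 and 0.93 on the volatile arrays. For ubiquitin it was 1.32, 1.16 and 1.19 against 1.08, 1.17 and 1.27. The part of the actin difference in the results was not tested. Over the whole array, the middle of the ranked log2 changes stood at 0.075 on the deposited scale, 0 after quantile or median scaling and 0.26 after scaling to the spike-in controls. Up calls made up 73.0% of the calls on the deposited scale, 58.6% after quantile scaling (184 up, or 0.809% of those tested, and 130 down, or 0.572%), 55.2% after median scaling (154 up and 125 down) and 88.1% after spike-control scaling (465 up and 63 down). That most calls were increases held on each of these scales, but by how much depended on the scale. The calls themselves were less affected: 112 of the 127 up and 41 of the 47 down were called under all 3 other scalings.

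The number of calls also depended on single arrays. Without control array 1 there were 265 up and 151 down, without control array 2 there were 57 and 20, and without control array 3 there were 45 and 12. Without volatile array 1 there were 58 up and 17 down, without volatile array 2 there were 56 and 56, and without volatile array 3 there were 152 and 28. A core of 26 up and 5 down calls passed in every one of these 6 fits and under all 3 scalings. Of this core, 2 up and 0 down calls passed when only the 6 arrays of 48 h were fitted, and 22 up and 3 down when the replicate number was a block in the fit of all 16. Volatile array 2, the brightest, was the highest volatile array in 110 of the 127 up calls, and in 77 after quantile scaling.

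**Figure D1:**
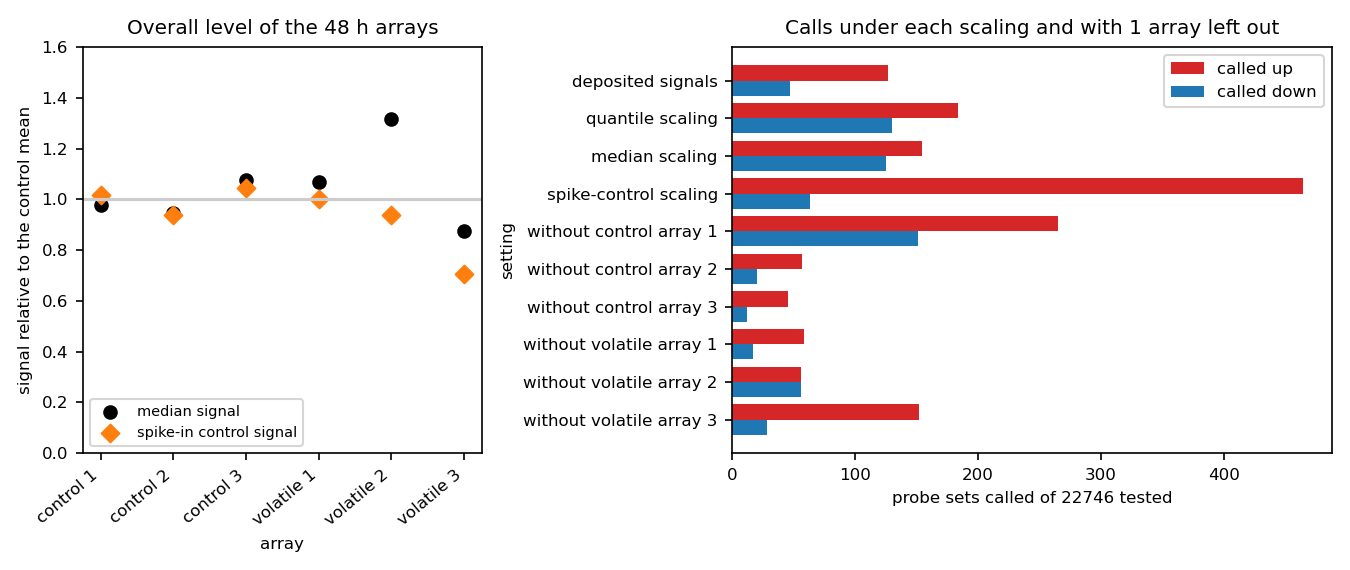
Left, the median signal and the geometric mean spike-in control signal of each 48 h array, each divided by the mean of the 3 control arrays (linear axis, no unit). Right, the number of probe sets called up and down under each scaling and with 1 array left out, with 127 up and 47 down on the deposited signals and the largest count, 465 up, after spike-control scaling.

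Among the gene lists with at least 4 probe sets, the highest median change was that of anthocyanin synthesis, the branch of flavonoid metabolism that makes red and purple leaf pigments. UF3GT, a glycosyltransferase that adds a xylose to anthocyanins, had levels of 5.04, 6.95 and 5.91 on volatile arrays 1, 2 and 3 and of 2.23, 1.57 and 0.14 on the controls. All 3 volatile arrays stood far above all 3 controls, one of which was near the floor. The log2 change was 4.65 (SE 0.82, adjusted p = 0.022), a size that depends on the floor. DFR, dihydroflavonol reductase, which opens the anthocyanin branch, had 5.89, 7.98 and 6.59 against 3.66, 3.78 and 2.25. Its groups did not overlap either, and its log2 change was 3.59 (SE 0.76, adjusted p = 0.049). CHIL, a chalcone isomerase-like protein of the earlier flavonoid steps, had 5.16, 5.93 and 5.44 against 4.21, 3.82 and 3.00, a log2 change of 1.84 (SE 0.34, adjusted p = 0.029). Of the 6 fits that each left out 1 array, UF3GT was called in 3, and DFR and CHIL in 1 each.

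Of the 5 probe sets on the anthocyanin list, 2 were called up, against 0.558% of all probe sets, and 4 rose at least 2-fold with no overlap between groups, against 2.81% of all. Their median log2 change was 3.37, or 3.24 after quantile scaling. AT4G14090, an anthocyanin glucosyltransferase, had a log2 change of 3.37 but an adjusted p of 0.09 (0.037 after spike-control scaling), and UGT78D2, which glucosylates flavonoids at an earlier step, had 0.96 with an adjusted p of 0.078. AT5MAT, an anthocyanin malonyltransferase named here after its values were seen, had 2.80, 3.84 and 2.54 against 0.88, 1.61 and 0.00, with an adjusted p of 0.069 (0.021 after spike-control scaling). Volatile array 2 was the highest and control array 3 the lowest array for each of the 5. The same 5 had a median log2 change of -0.28 in the 24 h arrays on the deposited scale, on which 76.0% of all probe sets were above 0.

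**Figure D2:**
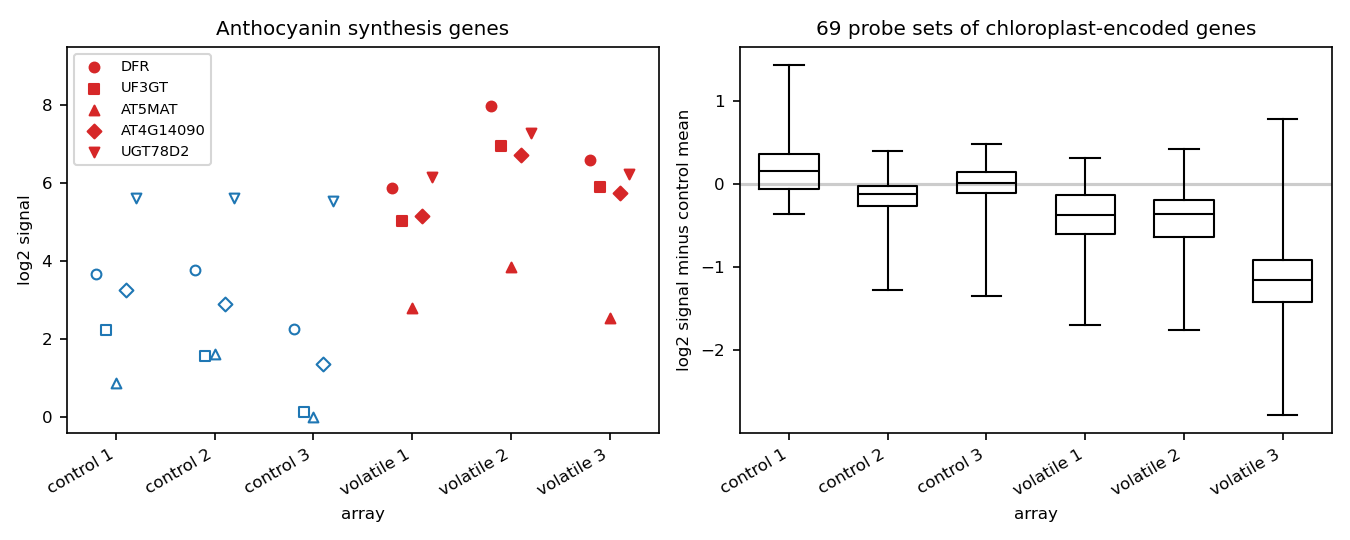
Left, log2 signal of the 5 anthocyanin synthesis genes on each control (open) and volatile (filled) array of 48 h. Right, log2 signal minus the control mean for the 69 chloroplast-encoded probe sets on each array, where the line is the median, the box the quartiles and the whiskers the lowest and highest probe set. All 5 anthocyanin genes were higher on every volatile array, and the chloroplast probe sets were lowest on volatile array 3, with a median of -1.16.

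Genes for the conjugation of reactive and foreign compounds also lay on the high side. All 7 probe sets of the chemical detoxification list had a change above 0, with a median log2 change of 1.43 (1.31 after quantile scaling), against 57.2% of all probe sets above 0 and a median of 0.07. Of the 7, 1 was called up, against 0.558% of all, and 4 rose at least 2-fold with no overlap, against 2.81% of all. The called member was UGT73C1, a glycosyltransferase of cytokinins and xenobiotics, at 3.18, 3.01 and 2.72 on the volatile arrays and 1.63, 0.00 and 0.00 on the controls. Only 1 control was above the floor and all levels were low. Its log2 change was 2.43 (SE 0.35, adjusted p = 0.012), and it stayed called with any 1 array left out. UGT73B4, a glycosyltransferase of small phenolic compounds, had 4.66, 5.45 and 4.34 against 2.65, 3.5 and 0.00. The groups did not overlap, but the controls spread over the floor and 3.5, and its log2 change of 2.76 had an adjusted p of 0.18. GSTU25, a tau-class glutathione transferase, had 4.84, 4.88 and 4.54 against 4.29, 1.79 and 2.02, where control array 1 was close to the volatile arrays and the adjusted p was 0.21. AER, alkenal reductase, which reduces reactive aldehydes from oxidised lipids, had 6.86, 7.28 and 6.86 against 6.26, 6.33 and 5.96, and its log2 change of 0.82 passed limma (adjusted p = 0.041) but not the 2-fold limit.

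Among the 51 probe sets that a name pattern assigned to the UDP-glycosyltransferases, UF3GT included, 3 were called up, against 0.558% of all probe sets, and none down. This list is not the whole family, and the 3 do not cover every called glycosyltransferase named above and below. It shares UF3GT with the anthocyanin list and UGT-named genes with the detoxification list, so the lists are not separate evidence. With no overlap, 7 were at least 2-fold higher and 1 lower, against 2.81% and 1.09% of all, and 39 were above 0, against 57.2% of all. Their median log2 change was 0.45, and 0.38 after quantile scaling. UGT84A3, which makes glucose esters of hydroxycinnamic acids, had 6.15, 6.86 and 5.86 against 5.01, 4.63 and 4.28, with a log2 change of 1.65 (SE 0.28, adjusted p = 0.02). The groups did not overlap, and it was called in 3 of the 6 fits with 1 array left out. IAGLU, which conjugates the auxin indole-3-acetic acid to glucose, rose by a log2 change of 1.77 (adjusted p = 0.029), and the glycosyltransferase AT2G36970 by 1.85 (adjusted p = 0.018). UGT71C3 had a log2 change of 2.14 (adjusted p = 0.078) and UGT87A2 one of 1.11 (adjusted p = 0.079), both with no overlap between groups, and both passed after quantile scaling (adjusted p = 0.024 for each). Of the 14 glutathione transferase probe sets none was called, where 0.765% of all probe sets were. With no overlap, 2 (14.3%) were at least 2-fold higher, a share close to the 13.7% of the UDP-glycosyltransferases, against 2.81% of all. The median log2 change of the 14 was 0.47. The cytochromes P450 with a single named gene, mostly of the CYP71B branch, had a median log2 change of 0.03. Of these 24 none was called, against the same 0.765% of all. CYP71B22 was the largest of them at a level above the median of the arrays, with a log2 change of 1.29 (adjusted p = 0.074, or 0.024 after quantile scaling).

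Of defence proteins, a few were called and most of those listed were not. The list of named chitinases had 2 probe sets, with log2 changes of 0.44 and 1.43 and none called, and the list of ethylene response factors and defensins had none of 5 called and 2 below 0. Over all probe sets 0.765% were called, so the lack of calls in lists this small says little about the families. Other loci of the chitinase family were called. AT2G43580, of the chitinase family, whose members cut the chitin of fungal walls and insect linings, had 5.28, 5.47 and 5.01 against 1.67, 0.00 and 1.98. The volatile arrays agreed within 0.46 while the controls lay near the floor. Its log2 change was 4.03 (SE 0.60, adjusted p = 0.014), and with controls near the floor its size depends on the floor. Its neighbour in the genome AT2G43590, of the same family, had 9.01, 9.47 and 8.74 against 6.96, 7.51 and 6.83, a log2 change of 1.97 (SE 0.27, adjusted p = 0.011). The 2 probe sets stayed called with any 1 array left out, and whether related family members share signal between them was not tested. The lectin JAL23, a jacalin-type carbohydrate-binding protein, had 7.46, 8.09 and 6.82 against 6.30, 5.33 and 4.98, with a log2 change of 1.92 (SE 0.36, adjusted p = 0.029). AT1G73040, also of the jacalin lectin family, had 5.52, 6.41 and 5.45 against 3.05, 4.64 and 3.77, a log2 change of 1.97 (adjusted p = 0.04). Both lectins were called in 2 of the 6 fits with 1 array left out. EULS3, a lectin of another family, changed by 0.97 (adjusted p = 0.04), just under 2-fold. The other 3 of the 5 lectin probe sets on the list were below 0.

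A panel of 35 probe sets that the study had chosen from these arrays for quantitative PCR is given as its own group, and because of that choice it is not independent evidence of a direction. The panel mixed genes raised by the volatiles, genes strongly changed by feeding, hormone pathway genes and genes picked at random, some held to be unregulated. Of the 35, 4 were called up, against 0.558% of all probe sets, and none down. With no overlap, 10 were at least 2-fold higher, against 2.81% of all, and 31 were above 0, against 57.2% of all, with a median log2 change of 0.68 (0.57 after quantile scaling). Basic chitinase had 9.12, 9.68 and 8.80 against 5.57, 7.20 and 7.21, with a log2 change of 2.54 (SE 0.44, adjusted p = 0.021). OPR2, a 12-oxophytodienoate reductase, had 8.69, 8.81 and 8.65 against 7.38, 7.20 and 6.46, with a log2 change of 1.71 (SE 0.23, adjusted p = 0.0077). The annotation matched its probe set to no single gene, so the name OPR2 is the study's. This probe set was the 1 panel member in the stable core. LOX2, the chloroplast lipoxygenase of jasmonate synthesis, had 10.43, 10.77 and 10.20 against 9.65, 8.78 and 9.37, with a log2 change of 1.2 (SE 0.24, adjusted p = 0.037). The lactoylglutathione lyase-like protein, of the enzyme family that detoxifies methylglyoxal, had 9.87, 10.09 and 9.71 against 9.28, 8.74 and 8.32, with a log2 change of 1.11 (SE 0.21, adjusted p = 0.029). The study had picked it at random among genes it classed as not significantly regulated by either volatiles or feeding. All 4 showed separate groups, with the narrower spread on the volatile side for each of them.

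These 4 transcripts are also those for which the study designed primer pairs among the called panel members, and the pairs identify the transcript parts it amplified. They are written 5′ to 3′, the sense primer before the antisense primer.
basic chitinase sense: atgaaactacaggtggatgg
basic chitinase antisense: aggtcagggttgttgagtaa
LOX2 sense: cctcatttccgctacac
LOX2 antisense: taagccttcctggtcaa
OPR2 sense: ctagcaccattgacgaga
OPR2 antisense: gacagaagaagataccacct
lactoylglutathione lyase-like sense: gttacctggtggtcggctca
lactoylglutathione lyase-like antisense: aacactgcgaaacgaatcta

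The rest of the jasmonate and ethylene genes of the panel did not pass on the deposited scale. The hydroperoxide lyase that opens the green leaf volatile branch had a log2 change of 0.89 (adjusted p = 0.059). It passed after spike-control scaling, with 1.09 (adjusted p = 0.0078), and had 0.81 (adjusted p = 0.019) after quantile scaling, under 2-fold. OPR3, the reductase of the main jasmonate route, had 0.63 (adjusted p = 0.19), and allene oxide synthase had 0.38 (adjusted p = 0.54). Vegetative storage protein Vsp1 had 1.37 (adjusted p = 0.21) and a putative lipoxygenase 0.22 (adjusted p = 0.87). Ethylene responsive element binding factor 2 had 1.13 (adjusted p = 0.27), factor 4 had 0.35 (adjusted p = 0.83) and another such factor 0.68 (adjusted p = 0.34). The ethylene response factor had 7.80, 8.35 and 7.5 against 6.33, 6.42 and 6.77, a log2 change of 1.37 with no overlap but an adjusted p of 0.096. It passed after quantile (adjusted p = 0.033) and spike-control scaling (adjusted p = 0.022). PDF1.2, a defensin that responds to jasmonate and ethylene together, had 10.98, 11.14 and 10.44 against 9.02, 9.19 and 10.05, where control array 3 lay 0.39 below the nearest volatile array and the adjusted p was 0.37. THI2.1, a jasmonate-responsive thionin that was not on the panel, had a log2 change of 1.76 (adjusted p = 0.13, or 0.036 after spike-control scaling).

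PR-1, a marker of salicylate responses, had 10.58, 10.65 and 10.52 against 6.84, 10.07 and 10.40. A single control array, number 1, was far below the other 5 arrays, and the log2 change of 1.48 had an adjusted p of 0.53. How far the controls spread overall depended on the scale. Among probe sets at or above the median level, the control arrays had the larger SD for 44.1% on the deposited scale and for 70.8% after quantile scaling. After quantile scaling the median SD was 0.249 among the controls and 0.152 among the volatile arrays. Before it, the order was the other way, 0.266 and 0.301.

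Outside these families, AT4G13180, of the short-chain dehydrogenase family, rose with little spread and had 7.99, 8.27 and 8.26 against 6.11, 6.09 and 6.03. Within each treatment its arrays differed by less than 0.3. The log2 change was 2.09 (SE 0.13, adjusted p = 3.6e-05). AT1G20380, of the prolyl oligopeptidase family of peptidases, had 7.03, 9.15 and 8.13 against 4.08, 5.39 and 3.99, a log2 change of 3.62 (SE 0.57, adjusted p = 0.018). COR15A, a chloroplast protein that protects membranes in the cold, had 7.78, 7.87 and 7.18 against 5.45, 6.16 and 4.27, a log2 change of 2.32 (SE 0.49) with an adjusted p of 0.05, on the threshold, and it was called in none of the 6 fits with 1 array left out. The other cold- and drought-responsive genes of its list did not pass, and COR47, a dehydrin, had a change of -0.56 (adjusted p = 0.35). BETA-VPE, a vacuolar processing protease, had a log2 change of 1.7 (adjusted p = 0.044), AT2G41380, of a methyltransferase family, one of 2.16 (adjusted p = 0.018), and AT4G01870, related to TolB, one of 2.05 (adjusted p = 0.018). AT1G80130, with tetratricopeptide repeats, AT1G52770, of the NPH3 family, and AT3G15650 completed the named increases, with log2 changes of 2.34, 1.75 and 1.71. The core also held scpl35, a serine carboxypeptidase-like protein (log2 change 1.47, adjusted p = 0.0064), AT1G67360, of a lipid droplet-associated family (1.42, adjusted p = 0.0033), and AT1G70810, with a C2 domain (1.23, adjusted p = 0.012).

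Sugar transport and storage genes were divided. SAG29, the SWEET15 sugar exporter induced in senescent leaves, had 3.51, 6.92 and 4.75 against 0.00, 3.45 and 0.00, so volatile array 1 lay 0.06 above control array 2 and the log2 change of 3.91 had an adjusted p of 0.1 (0.043 after spike-control scaling). APL3, a large subunit of ADP-glucose pyrophosphorylase in starch synthesis, had a log2 change of 1.78 (adjusted p = 0.095, or 0.018 after spike-control scaling). SWEET16, a sugar carrier of the vacuole membrane, was called down, at 4.31, 4.42 and 3.84 against 5.59, 5.2 and 5.45. The groups were separated by 0.78, and the log2 change was -1.22 (SE 0.21, adjusted p = 0.021). Of 16 sugar transporter probe sets it was the only one called, where 0.765% of all probe sets were called. WRKY6, a transcription factor of senescence and defence, had 0.98 (adjusted p = 0.093, or 0.015 with a change of 1.18 after spike-control scaling), and bZIP44, of the sucrose-regulated bZIP group, was the 1 called of 22 bZIP probe sets, with 1.2 (adjusted p = 0.048). A single call in a list of 16 or 22 says little about the family.

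Among the named genes that fell, AT1G62510, a member of the lipid transfer proteins, had the largest change, with 4.71, 4.48 and 3.85 on the volatile arrays and 6.89, 7.54 and 9.09 on the controls. The controls spread over 2.2 log2 units, but each lay above every volatile array. Its log2 change was -3.50 (SE 0.52, adjusted p = 0.014, 11.3-fold). AT1G66100, a thionin, of a family of small antimicrobial peptides, had 6.83, 6.91 and 6.52 against 9.65, 9.37 and 9.12, with a tight grouping on both sides and a log2 change of -2.62 (SE 0.28, adjusted p = 0.0026). AT4G38690, of a phosphodiesterase family, had 6.02, 6.03 and 5.48 against 7.24, 7.13 and 7.44, a log2 change of -1.43 (SE 0.16, adjusted p = 0.0033). These 3 were the down calls with a single gene that held in every scaling and every fit with 1 array left out.

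AT3G62950, of the glutaredoxin family, had 2.6, 1.46 and 2.36 against 4.17, 4.77 and 5.62, with a log2 change of -2.72 (SE 0.44, adjusted p = 0.018). AT5G48490, also of the lipid transfer family, fell by 1.88 on the log2 scale (adjusted p = 0.04), AT5G56100, of the oleosin family, by 1.82 (adjusted p = 0.039), and AT3G61260, a remorin of the plasma membrane, by 1.46 (adjusted p = 0.018). The first 2 of these 3 had calls in 1 and 2 of the 6 fits with 1 array left out, and the remorin in 3. The remaining named decreases, AT5G16030, AT3G05900, AT3G50560, AT5G35970, ZW9, AT1G76110, AT5G02160 and AT1G21060, had log2 changes between -1.68 and -1.03. MCCA, a subunit of the carboxylase that breaks down leucine, had 5.92, 6.45 and 5.58 against 6.48, 7.54 and 8.85, where control array 1 lay 0.03 above volatile array 2. Its log2 change of -1.64 had an adjusted p of 0.12 (0.045 after quantile scaling), and all 4 probe sets of its amino acid breakdown list were below 0, with a median of -0.56. For the down calls as a whole, control array 3 was the highest control in 31 of 47, or 22 after quantile scaling.

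**Figure D3:**
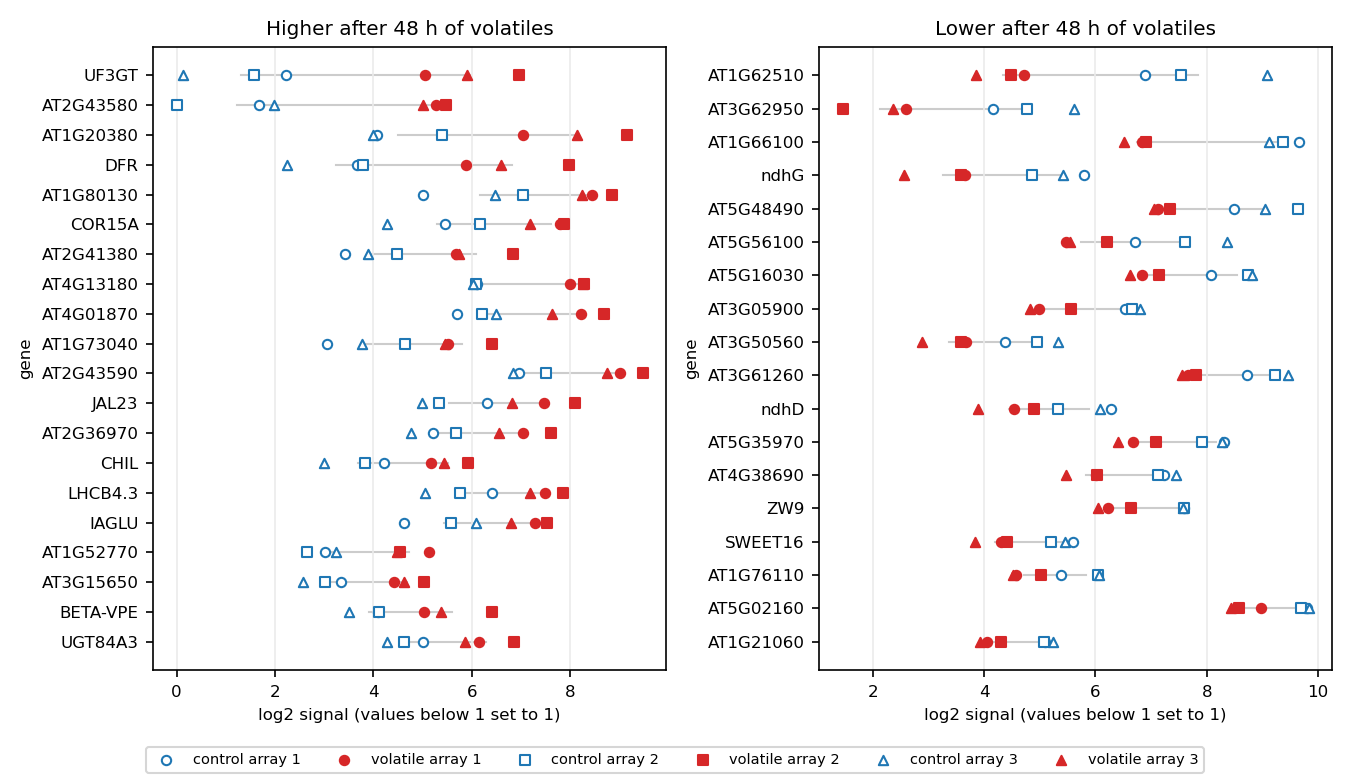
Log2 signal (values below 1 set to 1) of the named genes called up (left, 20 genes) and down (right, 18 genes) at 48 h, with each point 1 array, open blue for controls and filled red for volatile arrays, and a grey line between the group means. For every gene shown the 3 points of one treatment lie on one side of the 3 of the other, which was a condition for being shown.

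Photosynthesis genes lay on the low side, in the nucleus slightly and in the chloroplast more so. Of 69 probe sets for chloroplast-encoded genes, 2 were called down, against 0.207% of all probe sets. With no overlap, 7 fell at least 2-fold (10.1%, against 1.09% of all), and 68 were below 0, against 9157 of all 22746. After quantile scaling 11 fell in that way, against 1.69% of all. Their median log2 change was -0.63, and -0.72 after quantile scaling. The median per array, relative to the control mean, was 0.15, -0.12 and 0.01 on the controls and -0.37, -0.36 and -1.16 on the volatile arrays, so the fall was deepest on volatile array 3, which also had the lowest spike-in signal. Without volatile array 3 the median was -0.37. In the 24 h arrays it was 0.16 on the deposited scale, on which 76.0% of all probe sets were above 0 at 24 h.

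The 2 called chloroplast genes both encode subunits of the NADH dehydrogenase-like complex, which carries cyclic electron flow. ndhG had 3.65, 3.59 and 2.57 against 5.79, 4.87 and 5.41, with a log2 change of -2.08 (SE 0.40, adjusted p = 0.032), and ndhD had 4.53, 4.89 and 3.89 against 6.28, 5.32 and 6.08, with -1.46 (SE 0.30, adjusted p = 0.046). Neither pair of groups overlapped, and of the 6 fits with 1 array left out ndhG was called in 1 and ndhD in 2. By complex, a grouping made after the values were seen, the median log2 change was -0.88 over 10 probe sets for the NADH dehydrogenase-like complex, -0.70 over 12 for ATP synthase and cytochromes, -0.62 over 20 for the photosystems, -0.58 over 15 for ribosomal proteins and -0.46 over 4 for RNA polymerase. Neighbouring chloroplast genes share transcripts, so these probe sets are not independent of each other.

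Of the 8 nuclear photosynthesis probe sets, 7 were below 0 and none of these passed. LHCB4.2, of the minor antenna CP29, had 10.87, 11.02 and 10.67 against 11.15, 11.40 and 11.52 (log2 change -0.51, adjusted p = 0.17), and PSBY, a small photosystem II subunit, had -0.42 (adjusted p = 0.27). The eighth was LHCB4.3, a CP29 isoform known from plants in strong light, and it rose. It had 7.48, 7.86 and 7.19 against 6.40, 5.75 and 5.05, with no overlap and a log2 change of 1.78 (SE 0.35, adjusted p = 0.036), and was called in 2 of the 6 fits with 1 array left out.

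**Figure D4:**
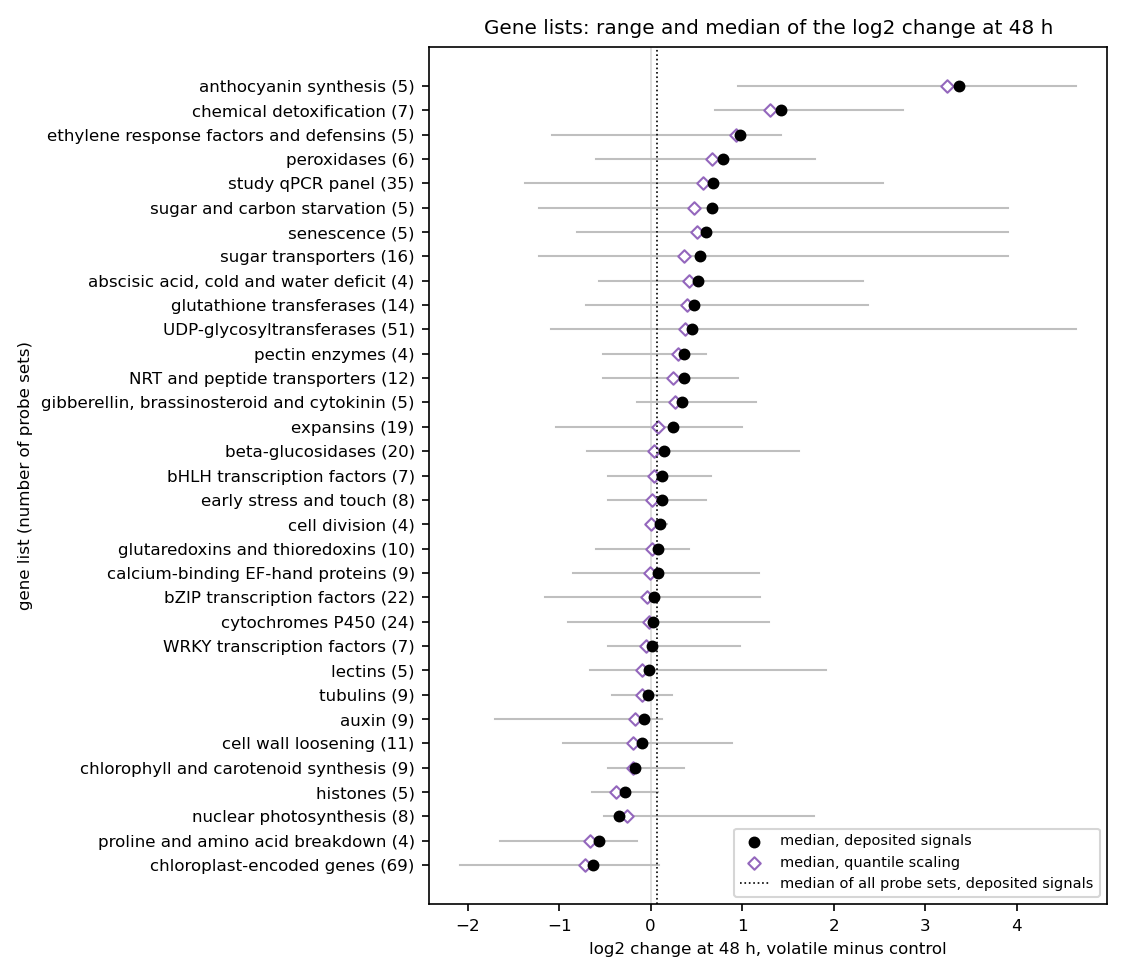
Log2 change at 48 h (volatile minus control) for gene lists with at least 4 probe sets, where the grey line runs from the lowest to the highest member, the filled point is the median on the deposited signals and the open diamond the median after quantile scaling. Of the lists plotted, which take all chloroplast-encoded genes as 1 list and leave out cell type markers, anthocyanin synthesis has the highest median, 3.37, and the chloroplast-encoded genes the lowest, -0.63.

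Markers of cell types were checked on the same arrays. The leaf mesophyll gene LHCB4.1 was at 11.36 to 11.48 on the volatile arrays and at 11.53 to 11.59 on the controls. Its log2 change was -0.16 and it was not called. The root hair gene EXPA7 was at the floor on 5 of 6 arrays. None of the 4 guard cell, 2 trichome, 2 phloem, 3 root and 1 flower or pollen probe sets was called in either direction. Over all probe sets 0.765% were called, so the lack of calls in lists this small says little about cell types. The flower and pollen gene, AGL29, was low on every array, at 1.64, 1.51 and 1.5 on the volatile arrays and 0.00, 0.86 and 0.00 on the controls, at least 2-fold higher with no overlap (adjusted p = 0.34). In whole leaves, fewer cells of a type and less RNA per cell cannot be told apart.

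The other arrays of the series, none of which is shared with the 48 h comparison, gave a reading of the same probe sets. In the 24 h arrays, 87 of the 127 up calls (68.5%) were above 0 after quantile scaling, against 49.5% of all probe sets, and 41 of the 47 down calls (87.2%) were below 0, against 46.4% of all. On the deposited scale the 24 h arrays themselves were shifted, with 76.0% of all probe sets above 0, and the shares were 83.5% for the up calls and 44.7% for the down calls, the latter against 19.9% of all. Only 1 of the 127 was itself called up at 24 h, where 1 probe set in all was called up (0.0044%) and 3 down (0.0132%). A test of the difference between the changes at the 2 times passed for 3 of the 127 and for none of the 47, and for 5 of all probe sets.

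In the leafminer feeding comparison, 56 of the 127 up calls were also called up, which is 44.1% of these calls and 1.93% of the feeding calls, where 12.8% of all probe sets were called up. Another 16 of the 127 (12.6%) were called down by feeding, against 6.49% of all. Of the 47 down calls, 12 (25.5%) were called down by feeding, against 6.49% of all. Another 6 (12.8%) were called up by feeding, no more than the 12.8% of all. The chitinase-family genes AT2G43580 and AT2G43590 rose in both, with log2 changes under feeding of 2.53 (adjusted p = 0.0064) and 2.72 (adjusted p = 1.3e-05). CHIL and LHCB4.3 went the other way under feeding, at -3.31 (adjusted p = 1.7e-05) and -2.87 (adjusted p = 5.7e-05), as did AT1G20380 at -3.37 (adjusted p = 0.00071). Of the genes that fell with the volatiles, AT1G66100, SWEET16 and AT3G62950 rose with feeding, by 2.12 (adjusted p = 0.00011), 2.59 (adjusted p = 2.8e-06) and 3.69 (adjusted p = 5.1e-05). UF3GT and DFR had 1.39 and 1.67 under feeding, with adjusted p-values of 0.24 and 0.13. The difference between the 2 treatments was not tested for these genes.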

How the data were processed

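Biotin-labelled RNA was hybridised to 1-colour Affymetrix ATH1 arrays, and the authors deposited linear MAS5 signal intensities, 1 column per array. The scaling target was not given in the sources used here, and detection calls were not used here. Signals below 1 were set to 1 and taken to log2 with no further scaling. The 64 control probe sets were left out of the tests. limma 3.58.1 in R 4.3.3 (lmFit, eBayes with trend) fitted 6 group means to all 16 arrays, with Benjamini-Hochberg adjustment over 22746 probe sets, and calls needed an adjusted p of at most 0.05 and a 2-fold change. The SEs are from this fit. The number of arrays, 3 per treatment, limits the precision. The study's own test, SAM, was not used.

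Of the probe sets, 13513 matched 1 gene in the platform annotation, 503 matched several and 8730 were not listed, so gene lists hold only part of each pathway. Family names for loci without a symbol are background knowledge. Lists for AP2/ERF factors and for cuticle genes were dropped because their symbols matched other genes, and promoter sequences were not used here. Named genes were the 20 called up and the 18 called down with the largest changes that were also called after quantile normalization, did not overlap between groups, reached the median level of all values in the higher group and matched 1 gene, plus the 2 to 4 largest members of each list at that level, the study's quantitative PCR panel and the calls that held in every scaling and with each array left out. The members and lists were chosen with earlier results of these data known. Alternatives were other scalings, a pseudocount of 16, the upper 60% of probe sets, fewer arrays in the fit, a replicate block, array weights, other fold limits and each array left out. The fit was tested on simulated data.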

Additional observations from a re-analysis of the deposited data

Results flagged for a closer look

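For 3 genes described above or in the core, the change at 48 h differed from that at 24 h in limma's test of the difference, adjusted over all probe sets. UGT73C1 differed by 5.06 on the log2 scale (SE 0.55, adjusted p = 0.0097), from -2.63 at 24 h, where both volatile arrays were at the floor, to 2.43 at 48 h, where 2 of 3 controls were at the floor. The size of this difference is therefore set by the floor and is not a measured amount. A probe set of the core that the annotation pairs with no gene, chosen after its values were seen, differed by 3.37 (SE 0.33, adjusted p = 0.0056), with -0.77 at 24 h and 2.59 at 48 h. AT4G13180 differed by 1.64 (SE 0.21, adjusted p = 0.022), with 0.46 at 24 h and 2.09 at 48 h. The 24 h comparison had 2 arrays per treatment.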

How the results depend on the processing

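The 110 probe sets recomputed, which are the named genes and the core but not every panel or marker gene, kept the sign of their change in each alternative run, and the counts of calls moved. Some panel members with changes near 0 did change sign. The 127 up and 47 down calls became 465 up after spike-control scaling, 130 down after quantile and 125 down after median scaling, and 237 up and 93 down among the upper 60% of probe sets by signal. Fitting only the 6 arrays of 48 h gave 6 up and 1 down, and only the 10 volatile arrays 30 and 13. Leaving out 1 array gave 45 to 265 up and 12 to 151 down. Array weights gave 1640 up and 882 down, but their estimation did not converge. The deviations of same-numbered arrays from their group means had correlations of 0.17, 0.10 and -0.18, against -0.22 to 0.20 for differently numbered arrays. With 3 arrays per treatment, these values cannot decide whether the numbers pair the samples. The replicate block gave 0 up and 0 down on 6 arrays and 41 up and 6 down on 16. At an unadjusted p below 0.05 there were 2092 up and 911 down in the main setting. Quantile scaling without volatile array 3, chosen after seeing the data, gave 91 up and 61 down. Counts with a pseudocount of 16, no variance trend or another fold limit stayed within 1.5 times. The promoter description was not run. Probe sets with signals near the floor have no reliable order.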
